A study of Homo sapiens with 6 samples.

Results

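The transcripts described here are those of 10 genes of the cytosolic heat shock chaperone machinery, chosen by name from the 78932 genes of the count table: HSF1, HSPA1A, HSPA1B, HSPA8, HSP90AA1, HSP90AB1, DNAJB1, HSPB1, BAG3 and STUB1. They were measured by RNA-seq in T24 cells, an established line from a human bladder carcinoma, after transfection with a non-targeting negative control siRNA (siNC, 3 cultures) or with siRNA against TRIM28 (siTRIM28, 3 cultures). TRIM28 is a SUMO and ubiquitin ligase that also acts as a transcriptional corepressor. The study asked how loss of TRIM28 alters the stability of PPARG, a nuclear receptor, and named STUB1 as the ubiquitin ligase involved, so the level of STUB1 mRNA and of the chaperones STUB1 works with bears on that question. All 6 libraries were labelled as biological replicates of batch 1. Which of the study's TRIM28 siRNAs the sequenced cultures received, and how long after transfection they were collected, are not given in the sources used here. All results come from 1 cell line and 1 knockdown experiment, and they concern mRNA, not protein.

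HSF1 is the transcription factor of the heat shock response. In unstressed cells it is held inactive in complexes with chaperones, and when unfolded proteins occupy these chaperones it forms trimers that bind heat shock elements, arrays of the bases GAA in alternating orientation, in the promoters of chaperone genes. Hsp70 proteins bind exposed hydrophobic stretches of client proteins in a cycle of ATP hydrolysis. HSPA8 encodes the constitutive cytosolic Hsp70, whereas HSPA1A and HSPA1B encode nearly identical, stress-inducible forms. DNAJB1 encodes a J-domain protein (Hsp40) that delivers clients to Hsp70 and stimulates its ATPase, and BAG3 a nucleotide exchange factor that releases clients and links Hsp70 to small heat shock proteins and autophagy. HSP90AA1 and HSP90AB1 encode the inducible and the constitutive cytosolic Hsp90, which complete the folding of kinases and steroid receptors. HSPB1 (Hsp27) is a small heat shock protein that holds unfolded clients without ATP. STUB1, also called CHIP, binds the C-terminal tails of Hsp70 and Hsp90 and ubiquitinates the clients they carry. Cancer cells, bladder carcinoma included, commonly contain large amounts of Hsp70 and Hsp90.

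Heat shock elements can be read directly in the promoters of these genes. The RefSeq promoter table for GRCh38.p14, which holds 250 bases before to 50 bases after each annotated start, had 13 windows for 8 of the 10 genes. The motifs searched, on both strands, were the inverted pairs GAANNTTC and TTCNNGAA and the triples GAANNTTCNNGAA and TTCNNGAANNTTC, each of which contains both kinds of pair. A pair was present in 8 of the 13 windows, belonging to 7 of the 8 genes, and in 13.5% of the 35116 windows of the whole table. A triple was present in 3 windows, 1 each of HSPA8, HSP90AA1 and HSP90AB1, and in 0.49% of all windows. The windows with triples are shown because their genes fell in siTRIM28, that of DNAJB1 because it carries separate pairs in a gene called higher, and that of HSPA1B as the inducible Hsp70. Capitals mark every base that belongs to a pair or triple. The coordinates are chr11:123062087-123062386 on the minus strand for HSPA8, chr14:102086995-102087294 on the minus strand for HSP90AA1, chr6:44247693-44247992 on the plus strand for HSP90AB1, chr19:14518348-14518647 on the minus strand for DNAJB1 and chr6:31827488-31827787 on the plus strand for HSPA1B.
HSPA8: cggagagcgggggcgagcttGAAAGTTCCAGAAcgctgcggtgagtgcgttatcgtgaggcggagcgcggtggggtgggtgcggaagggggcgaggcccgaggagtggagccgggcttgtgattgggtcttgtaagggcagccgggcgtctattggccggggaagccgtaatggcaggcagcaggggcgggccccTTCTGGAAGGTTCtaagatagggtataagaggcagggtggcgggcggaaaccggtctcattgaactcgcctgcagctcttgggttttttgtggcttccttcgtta
HSP90AA1: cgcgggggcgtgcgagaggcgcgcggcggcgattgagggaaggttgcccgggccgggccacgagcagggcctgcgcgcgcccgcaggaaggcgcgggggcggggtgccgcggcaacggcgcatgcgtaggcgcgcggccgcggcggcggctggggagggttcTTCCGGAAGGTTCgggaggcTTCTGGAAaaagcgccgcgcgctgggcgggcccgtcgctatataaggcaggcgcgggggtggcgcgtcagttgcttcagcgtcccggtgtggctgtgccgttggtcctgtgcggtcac
HSP90AB1: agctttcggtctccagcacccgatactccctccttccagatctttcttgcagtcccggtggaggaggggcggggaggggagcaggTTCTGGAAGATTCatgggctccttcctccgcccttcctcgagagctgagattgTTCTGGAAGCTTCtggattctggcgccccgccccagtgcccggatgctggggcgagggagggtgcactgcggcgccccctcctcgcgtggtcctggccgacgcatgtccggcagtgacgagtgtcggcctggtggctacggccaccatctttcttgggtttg
DNAJB1: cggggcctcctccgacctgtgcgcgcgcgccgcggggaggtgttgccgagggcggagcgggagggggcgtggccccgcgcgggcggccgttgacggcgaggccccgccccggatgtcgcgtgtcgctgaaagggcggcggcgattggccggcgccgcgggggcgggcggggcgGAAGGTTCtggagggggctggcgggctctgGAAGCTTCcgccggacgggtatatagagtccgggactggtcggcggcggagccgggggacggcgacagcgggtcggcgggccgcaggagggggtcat
HSPA1B: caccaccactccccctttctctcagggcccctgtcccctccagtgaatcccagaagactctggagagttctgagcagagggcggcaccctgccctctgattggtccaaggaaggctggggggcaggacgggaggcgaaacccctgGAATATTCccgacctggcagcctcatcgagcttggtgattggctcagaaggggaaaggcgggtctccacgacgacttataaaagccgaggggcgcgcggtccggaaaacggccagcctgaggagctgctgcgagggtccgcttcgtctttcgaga

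HSPA8 held the triple GAAAGTTCCAGAA, beginning 230 bases before the start, and the triple TTCTGGAAGGTTC, beginning 55 bases before it. HSP90AA1 held the triple TTCCGGAAGGTTC at 88 bases and the pair TTCTGGAA at 68 bases before the start, and HSP90AB1 held TTCTGGAAGATTC at 165 and TTCTGGAAGCTTC at 112 bases before it. The other window of HSP90AA1 and the other 2 windows of HSP90AB1, which belong to alternative starts, held neither motif. The DNAJB1 window shown held the separate pairs GAAGGTTC and GAAGCTTC at 77 and 47 bases before the start. Of the 2 windows of its alternative starts, 1 held GAAGCTTC and the other held neither motif. HSPA1A and HSPA1B both held the pair GAATATTC, at 106 and 105 bases before the start, and HSPB1 held GAAGGTTC at 182 bases. The window of BAG3, which also fell in siTRIM28, held neither motif. Whether the motifs go with the direction of change was not tested. A match describes the letters of the window and is not a measurement of HSF1 binding.

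The knockdown was present in every library labelled siTRIM28. TRIM28 had 103.7 ± 4.09 CPM (counts scaled to a common library size by TMM; SD, n = 3) in siNC and 8.87 ± 0.658 CPM in siTRIM28, a log2 fold change of -3.54 (edgeR quasi-likelihood test, Benjamini-Hochberg adjusted p = 1.027e-10). PPARG mRNA was at 7.14 ± 0.949 CPM in siNC and 7.52 ± 0.969 CPM in siTRIM28 and was not called (log2 fold change 0.07, SE 0.14, adjusted p = 0.728). The libraries held between 11712623 and 14018052 counts. KRT7, KRT8 and KRT18 were at 1 CPM or more in all 6 libraries, and KRT8 and KRT18 lay between 81.69 and 120.0 CPM. KRT20 was at 0 in every library, and KRT5, KRT19, EPCAM, GATA3, UPK2 and UPK3A were at 0.722 CPM or less. The uroplakin UPK1A was at 1.22, 1.08 and 0.314 CPM in siNC and at 4.14, 3.21 and 2.87 CPM in siTRIM28 (log2 fold change 1.94, adjusted p = 0.000548). KRT7 and KRT8 were called higher too, by 0.56 and 0.14, and the summed CPM of the 11 urothelial markers was 191.4 to 197.6 in siNC and 211.0 to 219.0 in siTRIM28. Their part in the results below was not tested. Of 5 markers of leukocytes, endothelium and liver none reached 1 CPM. The replicates of each group were not equally far apart. siNC replicates 1 and 2 differed by a chi-square of 1.08 per degree of freedom over genes, little more than sampling noise, whereas each differed from replicate 3 by 4.17 and 4.22. siTRIM28 replicates 2 and 3 differed by 1.22, and replicate 1 differed from them by 6.25 and 5.65. Nothing in the labels says that these close pairs share a culture, and all libraries were kept as replicates. If they do, the p-values below, which measure only the spread between these samples, are too small, and calls among the 10 genes that change when each close pair is summed are therefore given with that value.

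The main chaperones fell modestly in siTRIM28. HSPA8, HSP90AA1, HSP90AB1, HSPA1B and BAG3 were lower, with log2 fold changes from -0.20 to -0.29, and DNAJB1 was called higher by 0.20. HSF1, HSPA1A, HSPB1 and STUB1 did not pass the test. Thus 5 of the 10 genes were lower and 1 was higher at an adjusted p under 0.05, and all 10 had passed the filter on low counts. Of all 18474 genes tested, 41.8% were called, 21.3% higher and 20.5% lower, so calls were frequent everywhere and the 6 called among 10 have to be read against that share. The median log2 fold change of the 10 genes was -0.14, and that of all genes tested was 0.02. None of the 10 reached an absolute log2 fold change of 0.58, which 17.0% of all genes tested did while also passing the test.

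**Figure D1:**
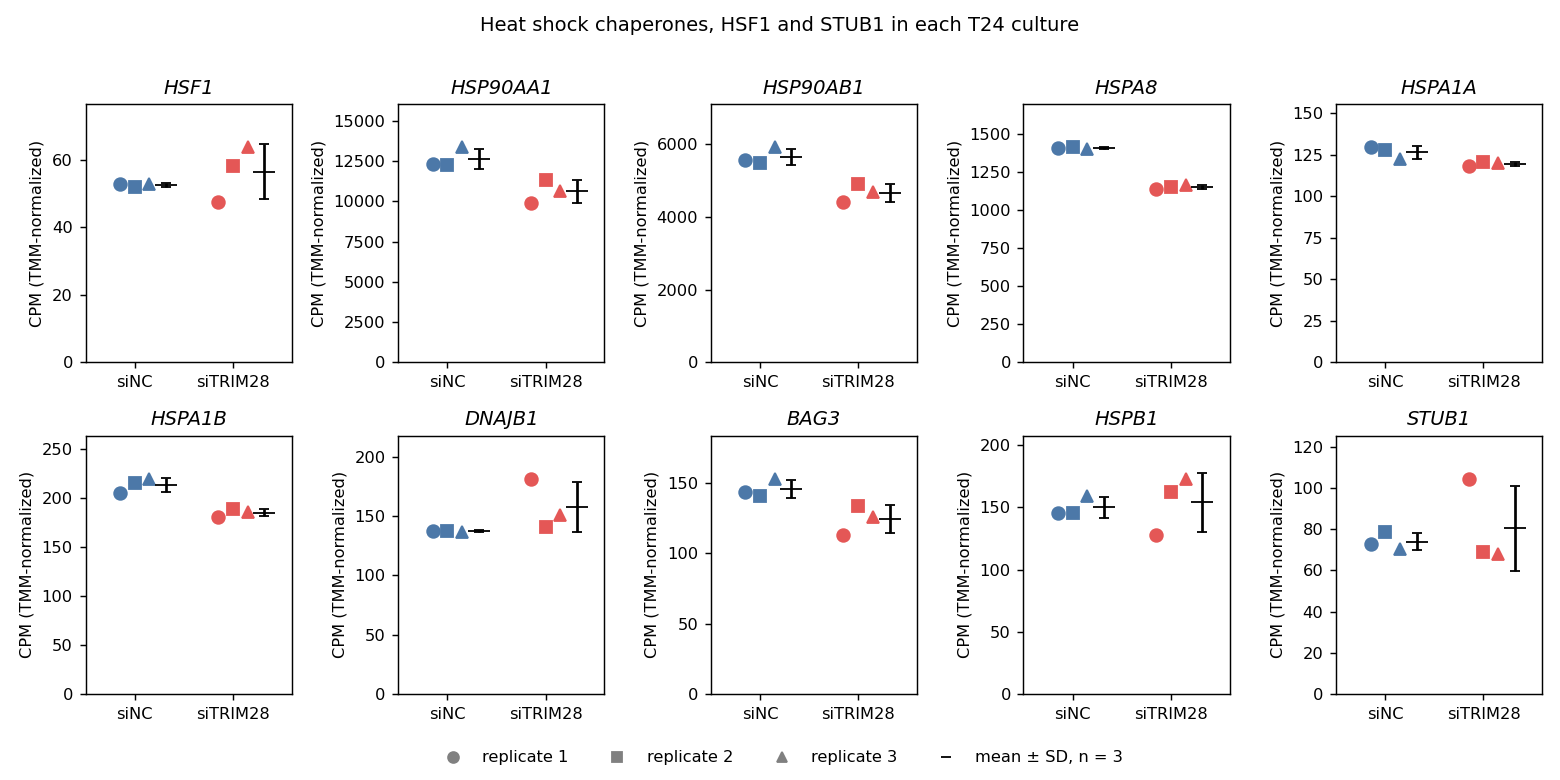
TMM-normalized CPM (y axis, starting at 0, a scale of its own for each gene) in each siNC (blue) and siTRIM28 (red) culture, with the replicate shown by the symbol and the mean ± SD (n = 3) in black. HSPA8, HSP90AA1, HSP90AB1, HSPA1A, HSPA1B and BAG3 had all red points below all blue points, DNAJB1 had all of them above, and siTRIM28 replicate 1 lay apart from the other siTRIM28 cultures for HSF1, DNAJB1, HSPB1 and STUB1. Of all genes tested, 25.7% had siTRIM28 values all below the siNC values and 26.3% all above.

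The Hsp90 genes were the most abundant of the group. HSP90AA1 had the highest mean count of all genes in the table, and it took 1.21% to 1.31% of all counts in siNC and 0.989% to 1.13% in siTRIM28. It stood at 12310, 12230 and 13350 CPM in siNC replicates 1, 2 and 3 and at 9903, 11330 and 10640 CPM in siTRIM28 replicates 1, 2 and 3. The groups did not overlap, as in 25.7% of all genes tested in the lower direction. The difference between the means exceeded the SD of either group (12630 ± 620.5 and 10620 ± 715.8 CPM). The log2 fold change was -0.25 (SE 0.05, adjusted p = 0.0016), a fall by 15.9%. HSP90AB1, the constitutive partner, ranked 12th by mean count. It stood at 5579, 5499 and 5914 CPM in siNC and at 4412, 4912 and 4688 CPM in siTRIM28, again without overlap. Its log2 fold change was -0.28 (SE 0.04, adjusted p = 3.087e-04). Inducible and constitutive Hsp90 were also compared directly. Their log2 ratio, that of HSP90AA1 to HSP90AB1 counts within each library, was 1.16 ± 0.016 in siNC and 1.18 ± 0.020 in siTRIM28, a difference of 0.03 (SE 0.01; exact two-sided permutation test, p = 0.2, with 0.1 as the smallest p that 3 against 3 libraries allow).

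HSPA8, which supplies most of the cytosolic Hsp70 mRNA in these cells, had the most regular change. Its levels were 1408, 1413 and 1404 CPM in siNC and 1143, 1151 and 1166 CPM in siTRIM28. Within each group the libraries lay close together, siTRIM28 replicate 1 included, and the groups were far apart relative to their spread (SD 4.61 and 11.5 CPM). The log2 fold change was -0.29 (SE 0.03, adjusted p = 2.195e-05). Leaving out any single library gave between -0.28 and -0.30. HSPA8 and HSP90AB1 differed in size of change by less than an SE, and which was larger depended on the libraries included.

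The inducible Hsp70 genes were less abundant than HSPA8 in every library. HSPA1B stood at 205.1, 215.4 and 219.7 CPM in siNC and at 181.3, 189.2 and 185.6 CPM in siTRIM28, without overlap, and was called lower (log2 fold change -0.20, SE 0.04, adjusted p = 0.00243). HSPA1A stood at 129.4, 127.6 and 122.2 CPM in siNC and at 118.4, 120.6 and 119.8 CPM in siTRIM28. These groups did not overlap either, as in 25.7% of all genes tested in the lower direction, yet HSPA1A did not pass the test (-0.08, SE 0.04, adjusted p = 0.168). Whether HSPA1A and HSPA1B changed by different amounts was not tested, because the genes cannot be measured independently. Of the 100-base windows of the longest HSPA1A transcript, 69.9% occurred unchanged in HSPA1B, and 68.8% of those of HSPA1B occurred in HSPA1A. How the counting treated reads that match both is not given in the sources used here. HSPA1B also lies inside SNHG32, a longer non-coding gene on the same strand, which was listed with 99.2% as many counts as HSPA1B. SNHG32 was itself called lower, by a similar amount (log2 fold change -0.18, adjusted p = 0.00332). The table cannot tell SNHG32 and HSPA1B reads apart, so the fall listed for HSPA1B cannot be assigned to either gene alone.

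Summing HSPA1A and HSPA1B removes any division of reads between them. It does not recover shared reads that the counting may have dropped, and it counts doubly any that were given to both. The sum was 334.5, 343.0 and 341.8 CPM in siNC and 299.7, 309.8 and 305.5 CPM in siTRIM28. It was lower in every siTRIM28 library (log2 fold change -0.16, SE 0.04, adjusted p = 0.00534), and HSPA1A made up 35.7% to 39.5% of it. Inducible and constitutive Hsp70 were also compared within each library. Reads that cannot be told apart from those of SNHG32 stay in the sum and in this ratio. The log2 ratio of the sum to HSPA8 was -2.07, -2.04 and -2.04 in siNC and -1.93, -1.89 and -1.93 in siTRIM28, higher in all 3 siTRIM28 libraries by 0.13 (SE 0.02). The exact two-sided permutation test gave its smallest possible p of 0.1, and 0.2 after adjustment over the 2 ratios tested, so this design cannot place the shift past a threshold of 0.05.

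BAG3 followed the chaperones downward. It stood at 143.2, 140.4 and 152.8 CPM in siNC and at 113.3, 133.5 and 126.0 CPM in siTRIM28. The groups did not overlap, and siTRIM28 replicate 1 was the lowest of the 6 libraries. The fitted change was -0.23 on the log2 scale (SE 0.06, adjusted p = 0.0105). Without siTRIM28 replicate 1 it was -0.16 (adjusted p = 0.0045), and without siNC replicate 3 it was -0.19 and narrowly lost its call (adjusted p = 0.0503). A gene on the opposite strand that overlaps BAG3, ENSG00000295480, had 26.6% as many counts as BAG3 and was itself lower (-0.16, adjusted p = 0.0455).

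DNAJB1 was the 1 gene of the group called higher, and the call lay close to the threshold. It stood at 137.4, 137.7 and 136.2 CPM in siNC and at 181.2, 141.0 and 151.1 CPM in siTRIM28. All 3 siTRIM28 values exceeded the siNC values, as in 26.3% of all genes tested in the higher direction, but replicate 1 was far above the other siTRIM28 libraries. The log2 fold change was 0.20 (SE 0.08, adjusted p = 0.0479). It was 0.09 without siTRIM28 replicate 1 (adjusted p = 0.0643) and 0.23 without siTRIM28 replicate 3 (adjusted p = 0.0605), and 0.20 without siNC replicate 1, 2 or 3 in turn (adjusted p = 0.122, 0.118 and 0.119). DESeq2 gave 0.20 (adjusted p = 0.062), and summing the close pairs gave 0.23 (adjusted p = 0.129). The call was thus lost in each of these settings.

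DNAJB1 also shares its locus with genes on the opposite strand. MIR639 lies inside a DNAJB1 exon of GENCODE v29 and within the span of TECR, and the table listed 498, 483 and 419 counts for MIR639 in siNC and 880, 400 and 445 in siTRIM28. The high count of MIR639 fell in the same library, siTRIM28 replicate 1, as that of DNAJB1, and TECR was high there too, with 1187 counts against 672 to 792 in the other 5 libraries. When the reads listed for MIR639 were taken off, an alternative chosen after seeing the data, DNAJB1 stood at 101.5, 102.8 and 103.3 CPM in siNC and at 118.3, 107.3 and 113.5 CPM in siTRIM28. The excess of replicate 1 was then much smaller, and the log2 fold change was 0.14 (SE 0.05, adjusted p = 0.0365). This step assumes that every MIR639 read was also counted for DNAJB1, which is not known. It was run in the main fit only, not in the settings in which DNAJB1 lost its call.

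Overlaps of this kind occurred elsewhere in the table. Of 82 non-coding genes that lie entirely inside exons of an opposite-strand coding gene with more than 5000 counts in the 6 libraries, 75 had counts and 14 had at least 10% of the counts of the coding gene. The median share was 2.04% of the counts of the coding gene. For 147 such genes on the same strand as the coding gene, the median share was 0.0433%, and 3 had at least 10%. The antisense gene ENSG00000265401, inside an exon of the ubiquitin gene UBB, had 99.5% as many counts as UBB. The kit was stranded, but the counting setting is not given in the sources used here, and reads of overlapping genes on either strand therefore cannot be told apart. For the other genes of the group, overlap was taken over the whole span of a gene, introns included. The overlapping row with most counts reached 56.2% of the counts of HSPB1 (ENSG00000296575), 24.1% of those of HSF1 (DGAT1) and 12.1% of those of STUB1 (JMJD8), all on the opposite strand. For HSPA8 it reached 0.136%, and for the Hsp90 genes less. The processed pseudogenes of HSPA8, HSP90AA1 and HSP90AB1 together had 0.597%, 0.658% and 1.11% as many counts as the parent genes. These counts do not measure shared reads, because how reads with multiple matches were treated is not given. Of the 100-base windows of the longest coding transcripts, 0%, 2.14% and 1.59% occurred unchanged in another gene.

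HSPB1 showed no common direction across the siTRIM28 cultures. It stood at 145.5, 145.1 and 159.5 CPM in siNC and at 127.7, 162.0 and 172.9 CPM in siTRIM28, where replicate 1 lay below all siNC values and replicates 2 and 3 above them. Its log2 fold change was 0.04 (SE 0.09, adjusted p = 0.768). Without siTRIM28 replicate 1 it was 0.16 and past the threshold (adjusted p = 0.00563), and with the close pairs summed it was -0.07 (adjusted p = 0.702).

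HSF1 itself behaved likewise. It stood at 52.85, 51.86 and 52.84 CPM in siNC and at 47.56, 58.27 and 63.68 CPM in siTRIM28. The siNC values were tight, and siTRIM28 replicate 1 lay below them while replicates 2 and 3 lay above. Its log2 fold change was 0.10 (SE 0.09, adjusted p = 0.39), and 0.22 without siTRIM28 replicate 1 (adjusted p = 0.00548). Across the 6 libraries the genes whose centred log2 CPM profile lay nearest to that of HSF1, among 11340 genes with a symbol and a mean of at least 50 counts, were LRRC58, ATP6V0C and SYNRG, with root mean squared differences of 0.03, 0.04 and 0.04 on the log2 scale.

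STUB1 mRNA did not pass the test in either direction. It stood at 72.93, 78.73 and 70.41 CPM in siNC and at 104.5, 68.91 and 68.15 CPM in siTRIM28. Replicate 1 was the highest of the 6 libraries, whereas replicates 2 and 3 lay just below all siNC values. The log2 fold change was 0.12 (SE 0.13, adjusted p = 0.492) with all libraries and -0.11 (adjusted p = 0.12) without siTRIM28 replicate 1. The sign of the STUB1 difference therefore depended on that library, and with an SE of 0.13 a change of the size seen for the Hsp90 genes was not detectable for STUB1. The nearest profiles to STUB1 were those of H2AZ1-DT, DAGLB and PET100, with differences of 0.04, 0.04 and 0.05. PET100, a subunit assembly factor of cytochrome c oxidase, stood at 87.48 CPM in siTRIM28 replicate 1 and between 53.97 and 61.76 CPM in the other libraries.

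**Figure D2:**
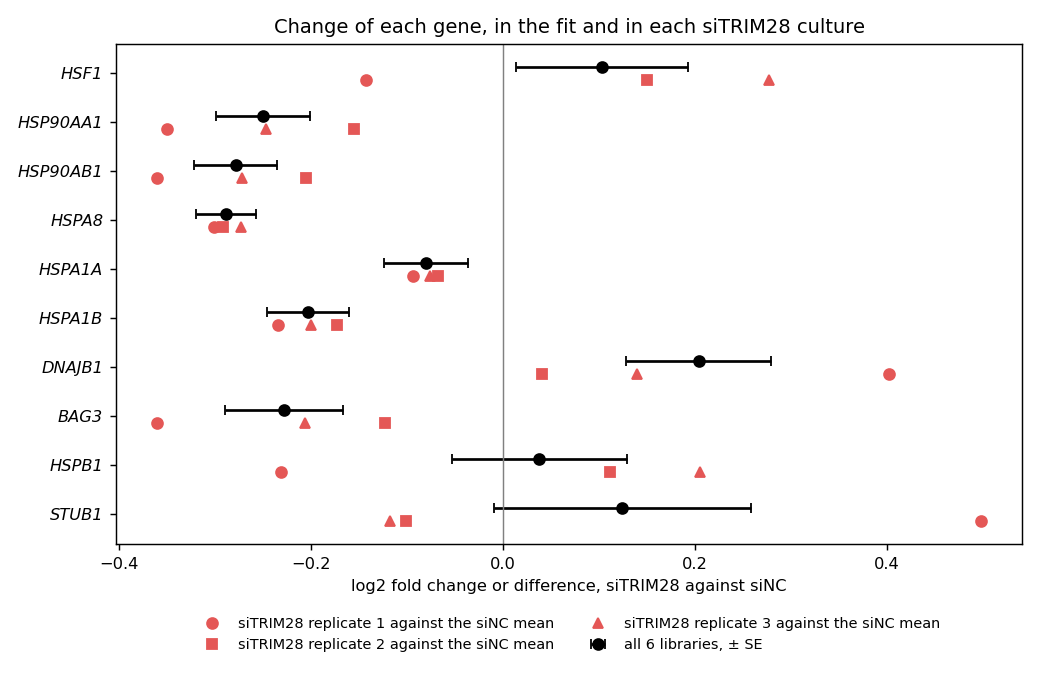
Log2 fold change ± SE from the edgeR fit (black) and the log2 difference of each siTRIM28 culture from the mean of the siNC cultures (red symbols, 1 for each replicate), for each gene. The cultures agree closely for HSPA8 (-0.27 to -0.30), HSPA1A and HSPA1B, whereas replicate 1 lies opposite in sign to replicates 2 and 3 for HSF1 (-0.14 against 0.15 and 0.28), HSPB1 (-0.23 against 0.11 and 0.21) and STUB1 (0.50 against -0.10 and -0.12).

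These 10 genes spanned a wide range of levels. As CPM per kilobase of the gene length in the count table, the siNC means ran from 2478 ± 121.7 for HSP90AA1 and 1901 ± 73.99 for HSP90AB1 through 290.4 ± 0.95 for HSPA8, 84.78 ± 2.97 for HSPA1B, 53.15 ± 2.38 for BAG3, 52.57 ± 1.57 for HSPA1A, 47.77 ± 2.62 for HSPB1 and 31.93 ± 1.84 for STUB1 to 14.95 ± 0.086 for DNAJB1 and 9.90 ± 0.11 for HSF1. BAG3 overlapped with HSPA1A, and no other neighbours in this order did, although the lowest HSPA1A value (50.81) and the highest HSPB1 value (50.8) all but met. The order below HSPA8 depended on the length used, because the table's length joins all exons of all transcripts and is 9168 bases for DNAJB1 and 3141 bases for HSPB1. With the longest coding transcript of GENCODE v29 (2264 and 909 bases), an alternative chosen after seeing the data, HSPB1, with 165.1 CPM per kilobase, came directly after HSPA8, and DNAJB1, with 60.55, came between HSPA1B and BAG3. The Hsp90 genes, then HSPA8, led the order and HSF1 closed it under both lengths.

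Together the 10 genes took 2.01%, 1.99% and 2.12% of all counts in siNC and 1.63%, 1.83% and 1.76% in siTRIM28, most of it HSP90AA1 and HSP90AB1. The libraries are bulk RNA, in which fewer cells with a transcript and less of it per cell cannot be told apart.

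Around these genes, other genes of the Hsp70 and Hsp90 systems moved in both directions. Of the other Hsp70 and Hsp110 genes 7 of 10 were tested, 2 were higher and none lower, but 0 were higher without siNC replicate 1, and 1 was higher without siNC replicate 3, without siTRIM28 replicate 2, under DESeq2 or with the close pairs summed. HSPH1, an Hsp110 exchange factor, stood at 222.2, 222.1 and 230.8 CPM in siNC and at 243.5, 257.0 and 263.9 CPM in siTRIM28 (log2 fold change 0.18, adjusted p = 0.00581), and lost its call without siNC replicate 1 and with the close pairs summed. HSPA14 was higher by 0.32, a call lost without siNC replicate 1 or 3, without siTRIM28 replicate 2 and under DESeq2. The overlapping gene MSANTD7 had 134% as many counts as HSPA14. HSPA6, the strictly stress-inducible Hsp70, was left untested, at 0.422 CPM or less in every library. None of the 8 other small heat shock genes, CRYAB and HSPB8 among them, had enough counts to be tested.

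Among 24 tested J-domain genes, which act in the cytosol, the nucleus and membrane-bound compartments, 4 were higher and 7 lower. DNAJB6, DNAJB4 and DNAJA2 rose by 0.33, 0.29 and 0.23 on the log2 scale, and DNAJC16, DNAJC21 and DNAJC8 changed by -0.78, -0.74 and -0.68. Hsp90 co-chaperones had 3 higher and 4 lower of 14, with 1 higher without siNC replicate 1 or 2, without siTRIM28 replicate 2 or 3, under DESeq2 or with the close pairs summed. FKBP5, a peptidyl-prolyl isomerase of the Hsp90 and steroid receptor complex, averaged 55.67 CPM in siNC and 25.75 CPM in siTRIM28 (-1.11 on the log2 scale, adjusted p = 1.242e-07), TTC4 changed by -0.49 and CDC37, which loads kinases onto Hsp90, by -0.32. CDC37L1 was higher by 0.41, PPP5C by 0.14 and STIP1, the adaptor between Hsp70 and Hsp90, by 0.14, and the calls of PPP5C and STIP1 were those lost. Of the other BAG genes and Hsp70 cofactors 3 of 7 were higher (BAG1 0.24, BAG5 0.19 and ST13 0.12) and 2 lower (HSPBP1 -0.52 and BAG4 -0.46). The number higher was 1 without siNC replicate 1 and under DESeq2, and 0 with the close pairs summed. KLC1, which overlaps BAG5, had 357% as many counts as BAG5, and LSM1 had 185% as many as BAG4.

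Of the 14 genes of the cytosolic chaperonin and prefoldin, which fold actin and tubulin, none was higher and 2 were lower, whereas 2 were higher and 5 lower without siTRIM28 replicate 1. The main 2, VBP1 (-0.77) and PFDN1 (-0.66), encode prefoldin subunits. The HSF family and regulators of HSF1 had 2 higher and 2 lower of 9. FBXW7 was higher by 0.36 and EP300 by 0.21, and GSK3B changed by -0.23 and SIRT1 by -0.21. With the close pairs summed FBXW7 alone of these kept its call. Without siNC replicate 3 the calls of EP300 and SIRT1 were lost, and the call of EP300 was also lost without siNC replicate 1 or siTRIM28 replicate 2, that of SIRT1 without siTRIM28 replicate 3.

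Of the HSF1 targets outside the 10 genes 8 were higher and 2 lower of 19 tested, with a median log2 fold change of 0.08. The number higher was 4 without siNC replicate 1 and with the close pairs summed, and 5 without siNC replicate 2, without siTRIM28 replicate 2 and under DESeq2. JMJD6 stood at 32.83, 32.29 and 34.97 CPM in siNC and at 57.99, 63.0 and 63.34 CPM in siTRIM28 (log2 fold change 0.88, adjusted p = 8.411e-07). IER5, a partner of HSF1 that is induced by heat, was higher by 0.52, and ZFAND2A by 0.67 at less than 3 CPM, a call lost in 8 of 15 alternative fits. SNHG16, which overlaps JMJD6, had 58.1% as many counts as JMJD6. HSPE1 and HSPD1, which form the mitochondrial chaperonin, changed by -0.21 and -0.15. Most of these targets are also counted in other lists given here, HSPE1 and HSPD1 in that of the mitochondrial chaperones, so the list counts are not independent.

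Chaperones of other compartments included larger falls than those of the 10 genes. In the endoplasmic reticulum 12 of 18 were lower and 2 higher, with a median of -0.22. The disulfide isomerase P4HB averaged 378.6 CPM in siNC and 204.4 CPM in siTRIM28 (-0.89 on the log2 scale, adjusted p = 1.511e-08), SIL1, the exchange factor of the resident Hsp70, changed by -0.82, with 996% as many counts in the overlapping gene MATR3, and SDF2L1 by -0.80, while DNAJB9 rose by 0.72 and DNAJC1 by 0.22. HSPA5, the resident Hsp70 itself, named after its value was seen, changed by -0.38 (adjusted p = 5.981e-06). In mitochondria 4 of 10 were lower and 2 higher, with a median of -0.12. HSPA9, the mitochondrial Hsp70, changed by -0.67 and its J-domain partner DNAJA3 by -0.35, while the exchange factor GRPEL2 rose by 0.67 and the protease LONP1 by 0.41.

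STUB1 works with ubiquitin-conjugating enzymes, and several of these fell although STUB1 did not pass the test. Of 10 partners and regulators 5 were lower and 2 higher, with a median of -0.27. BAG1, BAG2 and HSPBP1 among them are also counted with the BAG genes and Hsp70 cofactors above. UBE2D2 stood at 49.82, 51.14 and 55.27 CPM in siNC and at 21.28, 20.1 and 20.35 CPM in siTRIM28, without overlap (log2 fold change -1.34, adjusted p = 4.744e-08). UBE2N and UBE2V1, which together build lysine-63-linked chains, changed by -0.53 and -1.03, and UBE2W, which places the first ubiquitin on STUB1 itself, was higher by 0.40. The readthrough gene PEDS1-UBE2V1 had 99.8% as many counts as UBE2V1, and ENSG00000258677, which overlaps UBE2W, had 158% as many as UBE2W. UBE2D3, a close relative of UBE2D2 named after its values were seen, stood at 116.7 CPM in siNC and 115.7 CPM in siTRIM28 (log2 fold change -0.01, adjusted p = 0.832). Of the 9 other ubiquitin ligases that the study set beside STUB1 for PPARG, 4 were higher and 3 lower. TRAF4, VHL and SIAH2 were higher by 0.67, 0.52 and 0.43, and MKRN1, FBXO4 and NEDD4 changed by -0.64, -0.30 and -0.14.

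**Figure D3:**
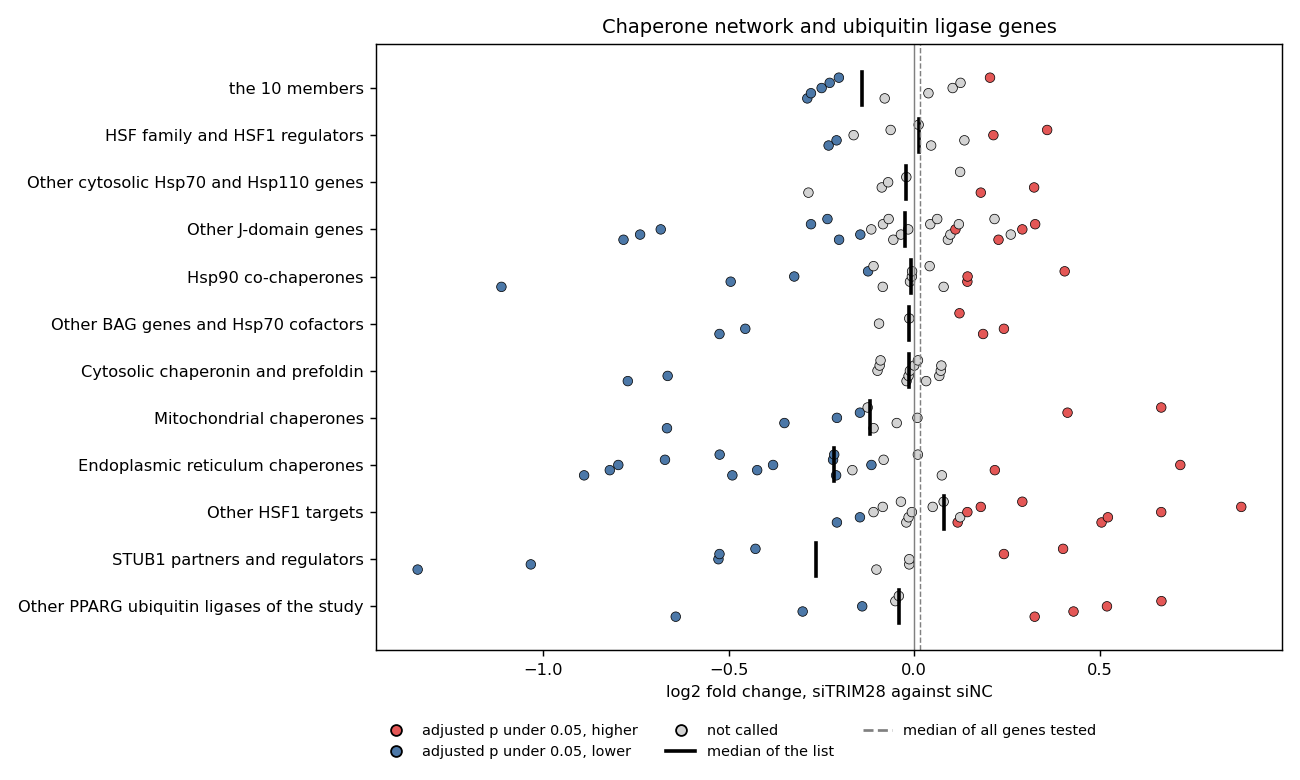
Log2 fold change of each tested gene (x axis) in the 10 genes described here and in 11 lists of related genes (rows), coloured red where called higher, blue where called lower and grey where not called at an adjusted p under 0.05. Black bars are list medians, from -0.27 for STUB1 partners to 0.08 for other HSF1 targets, and the dashed line is the median of all genes tested, 0.02.

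The lists were drawn up with earlier results of these data known, and their counts are given as descriptions beside the 21.3% higher and 20.5% lower of all genes tested. Of the 49 genes of these lists named by rule, 17 overlapped another gene with at least 10% as many counts. Besides those given above they are CDC37L1, TTC4, ST13, PFDN1, GRPEL2, ZFAND2A, VHL and SIAH2, with 13.2% to 80.4%, and HSPE1 and HSPD1, which overlap each other. Whether these overlaps lie in exons, as that of MIR639 in DNAJB1 does, was not tested for each gene. Shared reads are therefore possible for these genes but not shown. With the close pairs summed 14 of the 49 lost their call: EP300, GSK3B, SIRT1, HSPH1, DNAJB6, PPP5C, STIP1, BAG1, BAG5, ST13, HSPE1, DNAJC1, ZFAND2A and NEDD4. Calls became fewer over the whole table too, with 5830 of 20157 genes tested called in that setting and 7723 of 18474 in the main fit.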

How the data were processed

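Poly(A) RNA of 6 T24 cultures was sequenced with a stranded kit. The submitters' processing notes name fastp 0.23.1, STAR 2.7.6a, featureCounts and GRCh38. The annotation release and the counting settings for strand, overlapping genes and multiple matches are not given in the sources used here. The values used are the raw read counts per gene that the authors deposited. Their second table, RPKM of selected genes, was not used.

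Counts were TMM-scaled and tested with edgeR 4.0.16 (glmQLFit, glmQLFTest) in R 4.3.3 for the 18474 genes that reached 10 counts in 3 or more libraries, with Benjamini-Hochberg adjustment over all of them and a threshold of 0.05. Within-library ratios were tested by exact permutation. On counts simulated for these 18474 genes, 96 of 100 genes changed by 0.8 (log2) and 24 of 100 changed by 0.3 were called in the right direction, among genes with a mean of at least 50 counts. The changes of the 10 genes were of the smaller size. The simulation changed only 200 genes and gave every gene the same dispersion, whereas 41.8% of all genes tested were called in the data. The shares called in it are therefore not the sensitivity for the 10 genes.

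The members, lists and tests were chosen with earlier results of these data known. The lists come from general knowledge, except the PPARG ligases, which the study shortlisted. Named were the 10 members, TRIM28, PPARG, the 3 nearest profiles to HSF1 and to STUB1, and of each list up to 3 called genes with the largest absolute change in each direction. Alternatives were total-count, upper-quartile and RLE scaling, DESeq2 1.42.0, limma-voom (limma 3.58.1), other count filters, stricter thresholds, a replicate block, each library left out, and close pairs summed.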

Additional observations from a re-analysis of the deposited data

How the results depend on the processing

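HSPA8, HSP90AA1, HSP90AB1 and HSPA1B kept their direction and their call under every scaling, tool, filter, block and omission tried. BAG3 lost its call among these only without siNC replicate 3 (adjusted p = 0.0503). None of these settings changed how reads were assigned to genes, so they do not bear on reads that HSPA1B may share with HSPA1A or SNHG32. With each library left out in turn, 4 to 7 of the 10 genes were called, 0 to 2 of them higher and 4 to 5 lower. Over all genes, 6344 to 8130 were called with 1 library left out and 5878 under DESeq2, in place of 7723. No gene was called higher under DESeq2 (0), with the close pairs summed (0) or at an adjusted p under 0.01 (0), and when a log2 change of 0.58 or more in size was also required 0 were called, 0 higher and 0 lower, and the HSPA1A and HSPA1B sum (-0.16) was lost too. Without single libraries the log2 fold change ran from -0.0577 to 0.160 for HSPB1, from -0.11 to 0.22 for STUB1, from 0.00 to 0.22 for HSF1, from 0.09 to 0.27 for DNAJB1 and from -0.0122 to 0.180 for PPARG. Summing the close pairs gave -0.0715 for HSPB1 and -0.0154 for PPARG. It left 2 samples of unequal depth a group, and it kept 5 genes lower. The causes of these shifts were not tested.

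With the replicate number as a block, 6 of the 10 genes were called, 1 higher and 5 lower, and 7910 of all genes were called in place of 7723. The numbers only name the samples: deviations of same-numbered libraries from their group means correlated at 0.05, -0.01 and 0.04, and not every library correlated best with its own number. Upper-quartile scaling raised the median log2 fold change of all genes from 0.02 to 0.05. None of the 49 genes of the lists named by rule changed direction in any of 15 alternative fits, and 15 lost their call in at least 1, PPP5C (9), ZFAND2A (8), BAG5 (7) and STIP1 (6) most often. Depth limits what can be said of genes under 1 CPM, such as HSPA6 and the small heat shock genes other than HSPB1, while for HSF1, HSPB1 and STUB1 the spread of the siTRIM28 cultures is the limit.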
